A study of Mus musculus with 4 samples.

Results

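The data described here are the values of 9 housekeeping genes in the dorsal skin of mice, namely *Polr2a*, *B2m*, *Actb*, *Gapdh*, *Hprt*, *Tbp*, *Ppia*, *Rplp0* and *Ywhaz*. They were selected by gene symbol, and all 9 were found among the 24346 symbols listed for each library. Male C57BL/6 mice, 8 weeks old when feeding began, received a nonalcoholic steatohepatitis (NASH) diet, rich in fat, cholesterol and sucrose and with added bile salt, for 3 weeks. The diet of the Cont-IMQ group had no further additive, and that of the 7KC-IMQ group also contained 7-ketocholesterol (7KC), an oxidized form of cholesterol. All mice then received imiquimod (IMQ) cream, which activates Toll-like receptor 7 and is used to induce psoriasis-like dermatitis, on the dorsal skin for 1 day. RNA sequencing was performed on 4 libraries, 2 per group. No mice without IMQ or on a normal diet entered the comparison, so every comparison below is of 7KC added on top of both. Whether a library represents 1 mouse or several is not given in the labels, and the p-values measure the spread between these libraries.

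A housekeeping gene encodes a product that nearly every cell needs, such as an enzyme of glucose breakdown, a part of the ribosome or a subunit of RNA polymerase. In quantitative PCR (qPCR) such a gene serves as a reference: the signal of the gene of interest is divided by that of the reference to correct for the amount of RNA loaded, so any change in the reference moves every target the other way. In inflamed skin some of these genes are also part of the response, because *B2m* is induced by interferons, glycolytic enzymes follow metabolic demand, and actin transcripts follow the shape and movement of cells. The list of qPCR probes used in the study holds *B2m* and *Polr2a*. The methods of the study name *B2m* as the reference for liver and *Polr1a*, which is not on that list, as the reference for skin. For this reason *Polr1a* is given here beside the 9 genes.

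None of the 9 genes passed the test between the groups, but they did not all lie on the same side. *Polr2a* and *Rplp0* were lower in 7KC-IMQ without overlap between the groups, by 0.10 and 0.069 on the log2 scale, and *B2m*, *Actb*, *Gapdh*, *Tbp* and *Ppia* were higher without overlap, by 0.081 to 0.24, although *B2m* and *Actb* turned lower under some scalings given below. *Hprt* and *Ywhaz* overlapped between the groups. The values are FPKM, fragment counts divided by transcript length in kilobases and by the number of mapped fragments, as deposited. Groups were compared on log2(FPKM + 1) by limma across the 15896 genes with an average FPKM of at least 0.1, with Benjamini-Hochberg adjustment over all of them. Of the 9 genes, 0 had an adjusted p under 0.05 (range 0.509 to 0.983) and 0 had an unadjusted p under 0.05, against 0.00629% and 13.0% of all genes tested. The adjusted share is 1 gene, the microRNA entry *Mir24-2*, with an FPKM of 549 and 555 in Cont-IMQ and listed at 0 in both 7KC-IMQ libraries. The libraries of the groups did not overlap for 7 of the 9 genes, against 46.8% of all genes tested. In 5 of them 7KC-IMQ was higher (23.9% of all genes tested, and 33.8% of the 7099 genes averaging 10 FPKM or more), and in 2 it was lower (22.9% and 19.6%). The count of 7 fell to 5 when the libraries were rescaled to the same summed FPKM, and also to 5 under quantile normalization. The median difference over the 9 genes was 0.083, against -0.0056 over all genes tested and 0.042 over those averaging 10 FPKM or more.

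**Figure D1:**
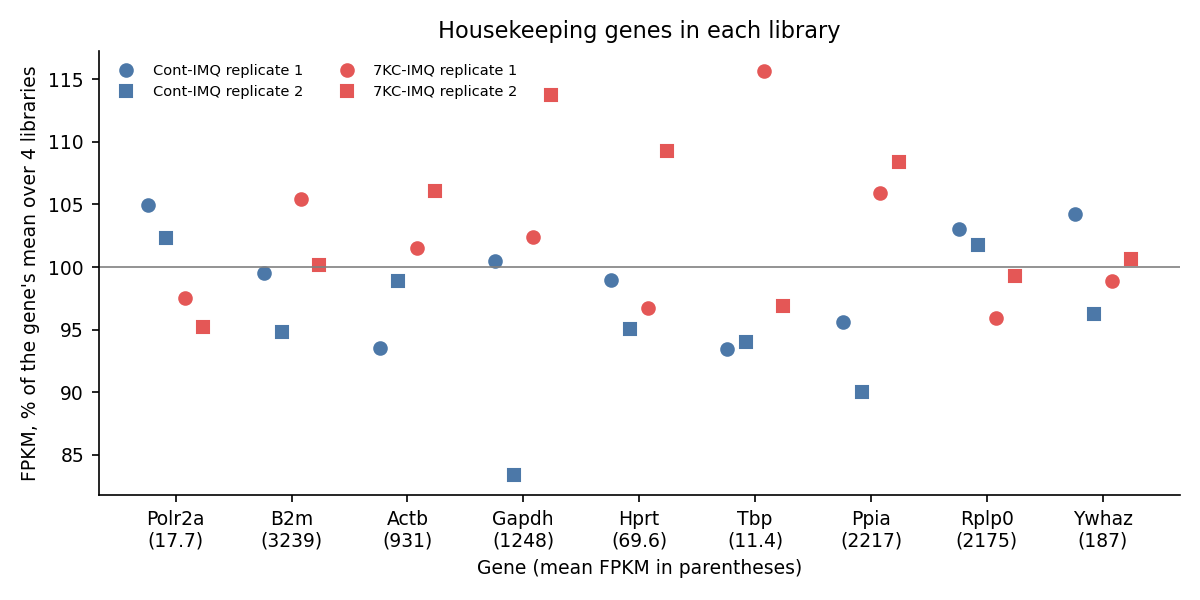
The FPKM of each gene in each library is plotted as a percentage of that gene's own mean over the 4 libraries, with Cont-IMQ in blue, 7KC-IMQ in red, circles for replicate 1 and squares for replicate 2. The widest scatter is that of *Gapdh*, from 1041 FPKM in Cont-IMQ replicate 2 to 1420.4 FPKM in 7KC-IMQ replicate 2.

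The 9 genes span a 284-fold range of mean FPKM, from 11.4 for *Tbp* to 3239 for *B2m*, and together they made up 1.496% to 1.58% of the summed FPKM of a library. Across the 4 libraries the highest FPKM was at most 1.2 times the lowest for 6 of the 9 genes, against 29.9% of all genes tested and 46.3% of those averaging 10 FPKM or more. The ratio of the highest to the lowest library had a median of 1.13 over the 9 genes, against 1.21 over genes averaging 10 FPKM or more. The smallest ratio was that of *Rplp0* (1.07), followed by *Ywhaz* (1.08), *Polr2a* (1.10), *B2m* (1.11), *Actb* (1.13) and *Hprt* (1.15). *Ppia*, at 1.2046, was just outside the limit, and *Tbp* (1.24) and *Gapdh* (1.36) were further out. A small ratio did not mean overlapping groups, since 4 of the 6 genes within the limit had no overlap between the diets. The interval of the difference lay within 0.5 either way on the log2 scale for 7 of the 9 genes, the exceptions being *Gapdh* and *Ppia*, and for 60.2% of all genes tested.

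The loci are given on GRCm38 (mm10), with GENCODE release M21. *Polr2a* lies at chr11:69733997-69758637 on the minus strand, *B2m* at chr2:122147686-122153083 on the plus strand, and *Actb* at chr5:142903115-142906754 on the minus strand. *Gapdh* lies at chr6:125161715-125166467 on the minus strand, *Hprt* at chrX:52988137-53021659 on the plus strand, and *Tbp* at chr17:15499888-15528379 on the plus strand. *Ppia* lies at chr11:6415443-6419817 on the plus strand, *Rplp0* at chr5:115559467-115563727 on the plus strand, and *Ywhaz* at chr15:36770770-36796929 on the minus strand. All 9 encode proteins.

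RefSeq promoter windows (GRCm38.p6) were matched for 7 of the 9 genes, all but *Actb* and *Ywhaz*, and 120 bases upstream of the annotated start are shown for the 2 genes of the qPCR probe list and for *Rplp0*, the one of the 9 whose values followed *Polr2a* most closely. They lie at chr11:69758644-69758763 on the minus strand for *Polr2a*, chr2:122147517-122147636 on the plus strand for *B2m*, and chr5:115559337-115559456 on the plus strand for *Rplp0*. Capitals mark GC boxes and a TATA box in *Polr2a*, an interferon response element and an NF-kappaB site in *B2m*, and CCAAT boxes in *Rplp0*.
Polr2a: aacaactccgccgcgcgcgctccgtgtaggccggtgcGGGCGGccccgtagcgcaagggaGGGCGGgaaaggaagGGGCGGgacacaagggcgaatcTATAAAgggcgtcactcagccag
B2m: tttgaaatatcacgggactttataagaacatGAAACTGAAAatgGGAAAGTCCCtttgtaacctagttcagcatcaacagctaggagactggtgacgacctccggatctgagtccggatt
Rplp0: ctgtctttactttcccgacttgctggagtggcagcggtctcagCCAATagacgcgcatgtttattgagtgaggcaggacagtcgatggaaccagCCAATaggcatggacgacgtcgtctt
The 250 bases before the start were searched on both strands. The interferon response element (GAAA, any 2 bases, then GAAA again) occurred in 2.98% of the 32851 windows and, among the 7 genes, in *B2m*, where it covers bases 139 to 130 before the start. The NF-kappaB site occurred in 7.25% of windows and also in *B2m*, at bases 126 to 117, without overlapping the first. The GC box (GGGCGG) occurred in 32.7% of windows and in *Polr2a*, *Hprt*, *Tbp*, *Ppia* and *Rplp0*. The letters of the TATA box (TATAAA) occurred in 12.4% of windows and in *Polr2a*, *B2m* and *Ppia*. They cover bases 33 to 28 before the start in *Polr2a* and 29 to 24 in *Ppia*. In *B2m* they lie further off, at bases 152 to 147 and on the opposite strand, and are not marked above. The CCAAT box (CCAAT) occurred in 33.8% of windows and in *B2m* and *Rplp0*. A match describes the letters in this window and not the binding of a factor.

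*Polr2a* is the gene of the catalytic large subunit of RNA polymerase II, which transcribes protein-coding genes. Its FPKM was 18.6 and 18.1 in the Cont-IMQ libraries and 17.2 and 16.8 in the 7KC-IMQ libraries, replicate 1 first here and below. Both 7KC-IMQ values were below both Cont-IMQ values, and replicates of a group differed by 1.03-fold at most. The difference was -0.10 on the log2 scale (95% interval -0.30 to 0.10, adjusted p = 0.618 by limma with Benjamini-Hochberg adjustment), and -0.18 when the libraries were rescaled to the same summed FPKM. An estimated 1660 to 1854 reads lay behind each value, for a counting error of at most 2.45%.

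The other 11 subunits of RNA polymerase II did not share this position. Their differences were all positive, from 0.017 to 0.29 with a median of 0.18 on the log2 scale, and 9 of the 11 were higher in 7KC-IMQ without overlap, while 0 were lower, against 33.8% and 19.6% of genes averaging 10 FPKM or more. Over all 12 subunits the median was 0.15, and 0.070 at the same summed FPKM. *Polr2f*, a small subunit shared by all 3 nuclear polymerases, had an FPKM of 144 and 141 in Cont-IMQ and 159 and 191 in 7KC-IMQ (difference 0.29, adjusted p = 0.388). *Polr2i* had 38.2 and 39.1 against 45.1 and 47.1 (0.25, adjusted p = 0.356), *Polr2k* 38.9 and 35.2 against 40.6 and 47.9 (0.25, adjusted p = 0.441), and *Polr2e* 71.7 and 66.5 against 78.9 and 84.6 (0.24, adjusted p = 0.366). In each of these 4 genes both 7KC-IMQ libraries were the higher ones. Over the whole list of 12 subunits, 3 had an unadjusted p under 0.05 in the higher direction and 0 in the lower, against 7.50% and 5.47% of all genes tested, and 0 passed the adjusted test.

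*Polr1a*, the largest subunit of RNA polymerase I, which transcribes ribosomal RNA, lay on the opposite side from *Polr2a*. Its FPKM was 7.97 and 7.71 in Cont-IMQ and 9.74 and 8.99 in 7KC-IMQ. The groups did not overlap, and the difference was 0.23 on the log2 scale (95% interval -0.018 to 0.48, adjusted p = 0.409 by limma). The log2 ratio of *Polr1a* to *Polr2a*, each as log2(FPKM + 1), was -1.12 and -1.13 in Cont-IMQ and -0.76 and -0.83 in 7KC-IMQ. The ratio was higher in both 7KC-IMQ libraries, by 0.33, with p = 0.333 in a two-sided exact permutation test, the smallest p that 2 libraries against 2 can give. Of the 4 large subunits of RNA polymerases I and III, 3 were higher without overlap and 0 lower, against 23.9% and 22.9% of all genes tested. The median difference of the 4 was 0.19 (0.12 at the same summed FPKM). *Polr1b* had 9.34 and 9.44 against 10.8 and 11.2 FPKM, and *Polr3b* 6.12 and 5.11 against 6.79 and 6.12 FPKM. *Polr3a* overlapped between the groups, with 5.34 and 5.05 against 5.19 and 5.63 FPKM.

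The length of the transcript moved with the difference across genes. In a grouping made after the values were seen, genes averaging 10 FPKM or more had a median difference of 0.087 where the longest coding transcript was at most 1000 bases (523 genes) and 0.078 from 1000 to 2000 bases (1690 genes). The median was 0.045 from 2000 to 4000 bases (2781 genes), 0.0076 from 4000 to 6000 bases (1204 genes), and -0.030 above 6000 bases (601 genes). *Polr2a*, at 6740 bases, is in the longest class, and the other 11 subunits run from 601 to 4145 bases. *Polr1a* is longer still, at 9216 bases, and was higher in 7KC-IMQ, although with a mean FPKM of 8.60 it is not among the genes of these classes. The part of transcript length in the position of *Polr2a* was not tested.

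**Figure D2:**
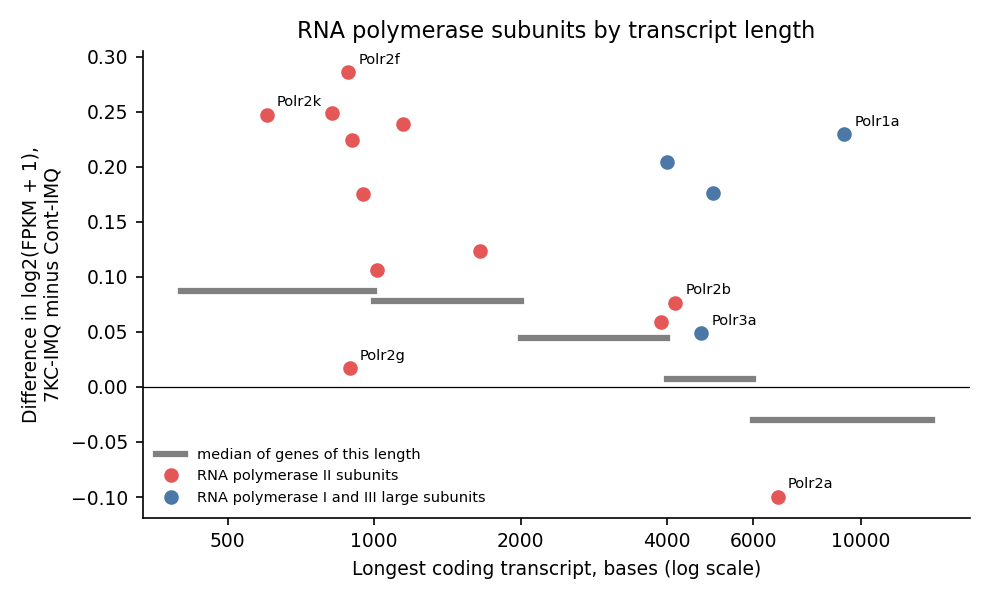
The difference in log2(FPKM + 1), 7KC-IMQ minus Cont-IMQ, is plotted against the longest coding transcript in bases on a log scale for the 12 RNA polymerase II subunits (red) and the 4 large subunits of polymerases I and III (blue), with grey lines for the median of all genes averaging 10 FPKM or more in each length class. *Polr2a* is the lowest point at -0.10, while *Polr1a*, the longest, is at 0.23.

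*B2m* encodes beta-2-microglobulin, which pairs with the heavy chains of MHC class I at the cell surface. It had the highest level of the 9 genes, with an FPKM of 3223 and 3071 in Cont-IMQ and 3415 and 3245 in 7KC-IMQ. The 7KC-IMQ values were higher without overlap, but 7KC-IMQ replicate 2 exceeded Cont-IMQ replicate 1 by little. The difference was 0.081 on the log2 scale (95% interval -0.25 to 0.41, adjusted p = 0.815 by limma), and its direction turned when the libraries were rescaled to the same summed FPKM (-0.00065) or quantile normalized (-0.10). Of the other 18 genes of MHC class I presentation, 12 were higher in 7KC-IMQ without overlap and 0 lower, against 33.8% and 19.6% of genes averaging 10 FPKM or more, and 0 passed the adjusted test. Over all 19 the median difference was 0.16, and it was 0.29 without Cont-IMQ replicate 1, 0.066 without Cont-IMQ replicate 2, 0.082 at the same summed FPKM and 0.095 under quantile normalization. The heavy chain gene *H2-K1* had an FPKM of 1221 and 1137 in Cont-IMQ and 1277 and 1250 in 7KC-IMQ, while *H2-D1*, another heavy chain gene, had 1100.3 and 1147 against 1178 and 1112 and overlapped. The 4 genes of the list with the largest differences were the lipid-presenting *Cd1d1* (4.40 and 4.69 against 9.49 and 6.36 FPKM), the proteasome activators *Psme2* (308 and 226 against 326 and 351 FPKM) and *Psme1* (178 and 156 against 197 and 209.6 FPKM), and the immunoproteasome subunit *Psmb9* (83.2 and 70.4 against 93.5 and 99.7 FPKM). These 4 were higher in both 7KC-IMQ libraries, and their adjusted p by limma was 0.356 to 0.453.

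Set against each other, the probe-list genes *B2m* and *Polr2a* diverged by more than their ratio differed between replicates. The log2 ratio of *Polr2a* to *B2m* was -7.37 and -7.33 in Cont-IMQ and -7.55 and -7.51 in 7KC-IMQ. It was lower in both 7KC-IMQ libraries, by 0.18 (two-sided exact permutation p = 0.333, the smallest possible). Under quantile normalization the ratio differed by -0.022.

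*Rplp0* encodes a protein of the stalk of the large ribosomal subunit. Its FPKM was 2241 and 2212 in Cont-IMQ and 2086 and 2159 in 7KC-IMQ. The 7KC-IMQ values were lower without overlap, and the difference was -0.069 on the log2 scale (95% interval -0.36 to 0.22, adjusted p = 0.822 by limma). It was -0.15 at the same summed FPKM and -0.25 under quantile normalization, and -0.044 without 7KC-IMQ replicate 1. Of the other 45 proteins of the large ribosomal subunit, 19 were higher without overlap and 1 lower. The 42.2% that were higher lie near the 33.8% of genes averaging 10 FPKM or more, of which 19.6% were lower. The median difference over all 46 was 0.062 (-0.020 at the same summed FPKM and -0.054 under quantile normalization, and 0.030 without 7KC-IMQ replicate 2), and 42 of the 46 stayed within 1.2-fold over the 4 libraries. None of the 46 had an unadjusted p under 0.05 by limma. Among the other 2 proteins of the same stalk, *Rplp1* had 4279.5 and 4421 against 4610 and 4618 FPKM and *Rplp2* had 2472 and 2507 against 2745 and 2962 FPKM, both higher in 7KC-IMQ. The largest differences on the list were those of *Rpl26*, which was listed at 0 in Cont-IMQ replicate 2 and had 7.23, 10.3 and 3.67 FPKM in the others, and of *Rpl34* (27.1 and 35.4 against 35.8 and 40.9 FPKM). *Rpl30* (24.1 and 25.2 against 36.2 and 23.8 FPKM) overlapped, and *Rpl41* (3054 and 3373 against 3789.8 and 3790.4 FPKM) did not.

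*Tbp* encodes the TATA-binding protein, the subunit of the general factor TFIID that binds DNA at the promoter. Its FPKM was 10.6 and 10.7 in Cont-IMQ and 13.2 and 11.03 in 7KC-IMQ. Both 7KC-IMQ values were higher, and 7KC-IMQ replicate 1 was the one that stood away from the others. The difference was 0.16 on the log2 scale (95% interval -0.14 to 0.46, adjusted p = 0.590 by limma), and 0.044 without that library, 0.28 without 7KC-IMQ replicate 2 and 0.087 at the same summed FPKM. *Tbp* had the fewest estimated reads of the 9 genes, 302 to 402 per library, which gives a counting error of up to 5.75%. Of the other 13 TFIID subunits, 5 were higher without overlap and 3 lower, shares of 38.5% and 23.1%. The same shares were 33.8% and 19.6% of genes averaging 10 FPKM or more, and 23.9% and 22.9% of all genes tested. Many of the 13, such as *Taf1*, *Taf5* and *Taf8*, average under 10 FPKM. The median difference over all 14 was 0.028, and it was -0.048 at the same summed FPKM, -0.031 without Cont-IMQ replicate 1 and 0.12 without Cont-IMQ replicate 2. *Taf5* (3.23 and 3.15 against 4.33 and 4.31 FPKM, difference 0.34) and *Taf10* (87.9 and 90.8 against 102 and 126 FPKM, 0.34) were higher, while *Taf13* (56.0 and 58.4 against 47.2 and 46.0 FPKM, -0.29) and *Taf8* (10.9 and 9.54 against 9.21 and 8.33 FPKM, -0.20) were lower. The adjusted p of these 4 was 0.356 to 0.516 by limma.

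*Gapdh* encodes glyceraldehyde-3-phosphate dehydrogenase, an enzyme of glycolysis. Its FPKM was 1254 and 1041 in Cont-IMQ and 1278 and 1420.4 in 7KC-IMQ. Both 7KC-IMQ values were higher, but the Cont-IMQ replicates differed by 1.21-fold, and 7KC-IMQ replicate 1 lay close to Cont-IMQ replicate 1. The difference was 0.24 on the log2 scale (95% interval -0.13 to 0.61, adjusted p = 0.531 by limma). It was 0.37 without Cont-IMQ replicate 1, 0.10 without Cont-IMQ replicate 2, and 0.16 at the same summed FPKM and 0.11 under quantile normalization. *Gapdh* also has many processed copies in the genome: 80.3% of the 75-base windows of its transcripts, the length of 1 read, occur in at least 1 of 121 other annotated genes, so its value depends on how shared reads were assigned.

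The other 14 enzymes of glycolysis on the list mostly lay on the same side as *Gapdh*. Of these, 9 were higher in 7KC-IMQ without overlap and 0 lower, against 33.8% and 19.6% of genes averaging 10 FPKM or more. An unadjusted p under 0.05 was found for 5 in the higher direction (7.50% of all genes tested) and 0 in the lower, and 0 passed the adjusted test. All 15 together had a median difference of 0.29, and it was 0.16 without Cont-IMQ replicate 2 and also without 7KC-IMQ replicate 2, but 0.41 without Cont-IMQ replicate 1 and 0.42 without 7KC-IMQ replicate 1. Phosphofructokinase *Pfkl* had 36.7 and 31.6 against 44.5 and 55.3 FPKM, a difference of 0.53 (adjusted p = 0.356). Enolase *Eno1* had 60.2 and 59.5 against 79.9 and 84.3 FPKM, a difference of 0.45 (adjusted p = 0.352). Phosphoglycerate mutase *Pgam1* had 228 and 205 against 267 and 309 FPKM (0.41, adjusted p = 0.356), and pyruvate kinase *Pkm* 453 and 383 against 507 and 596 FPKM (0.40, adjusted p = 0.366). In these 4 both 7KC-IMQ libraries were higher, and 0 of the 15 genes stayed within 1.2-fold over the 4 libraries.

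*Ppia* encodes cyclophilin A, a prolyl isomerase of the cytoplasm that binds cyclosporin. Its FPKM was 2119.7 and 1996 in Cont-IMQ and 2349 and 2404 in 7KC-IMQ. The 7KC-IMQ values were clearly apart from the Cont-IMQ values, with replicates differing by at most 1.06-fold, and the difference was 0.21 on the log2 scale (95% interval -0.093 to 0.51, adjusted p = 0.509 by limma). This was the lowest adjusted p of the 9 genes with the FPKM as deposited. The difference was 0.13 at the same summed FPKM and 0.091 under quantile normalization. Of its 75-base windows, 34.3% also occur in 1 or more of 22 other genes. The share of such windows was 27.4% for *Rplp0*, 18.5% for *Ywhaz* and 2.60% for *Actb*, and 0 for *Polr2a*, *B2m*, *Hprt* and *Tbp*. Among the other 15 cyclophilins 7 were higher without overlap and 2 lower, against 33.8% and 19.6% of genes averaging 10 FPKM or more. The median difference over all 16 was 0.11, and it was 0.030 at the same summed FPKM, 0.066 under quantile normalization and 0.067 without 7KC-IMQ replicate 1. The mitochondrial *Ppif* (84.7 and 58.7 against 108 and 117 FPKM, difference 0.66), *Ppid* (34.1 and 46.4 against 49.4 and 59.3 FPKM, 0.43), *Ppil1* (26.8 and 29.7 against 34.5 and 37.5 FPKM, 0.34) and *Ppib* of the endoplasmic reticulum (189 and 198 against 217 and 239.98 FPKM, 0.23) were all higher in both 7KC-IMQ libraries, with an adjusted p of 0.356 to 0.411 by limma.

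*Actb* encodes beta-actin, a component of the cytoskeleton. Its FPKM was 871 and 920.4 in Cont-IMQ and 945 and 987 in 7KC-IMQ. The 7KC-IMQ values were higher, and the gap between the groups was smaller than the gap between the Cont-IMQ replicates. The difference was 0.11 on the log2 scale (95% interval -0.14 to 0.36, adjusted p = 0.661 by limma), and it was 0.070 without Cont-IMQ replicate 1 and 0.028 at the same summed FPKM, and turned to -0.022 under quantile normalization. The other cytoplasmic actin, *Actg1*, had 1074 and 1186 against 1149.9 and 1359 FPKM and overlapped. Of the other 22 actins and actin-binding proteins, 10 were higher without overlap and 2 lower, against 33.8% and 19.6% of genes averaging 10 FPKM or more. Over all 23 the median difference was 0.11, and it was 0.034 at the same summed FPKM and 0.049 under quantile normalization. The actin-binding genes *Capg* (196 and 190.5 against 227 and 264 FPKM, difference 0.34), *Tpm4* (231 and 218 against 266 and 282 FPKM, 0.28) and *Pfn1* (488 and 470.4 against 555 and 597 FPKM, 0.27) were higher, with an adjusted p of 0.356 to 0.365 by limma. *Acta1*, the actin of skeletal muscle, was the largest difference on the list and lay the other way (2848 and 3133 against 2106 and 2583 FPKM, -0.36, adjusted p = 0.436).

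*Hprt* encodes a purine salvage enzyme and lies on the X chromosome. Its FPKM was 68.9 and 66.1 in Cont-IMQ and 67.3 and 76.0 in 7KC-IMQ. The groups overlapped, with 7KC-IMQ replicate 2 above the other 3 libraries. The difference was 0.083 on the log2 scale (95% interval -0.15 to 0.32, adjusted p = 0.726 by limma) and -0.0038 without that library, 0.17 without 7KC-IMQ replicate 1, and 0.0021 at the same summed FPKM and 0.020 under quantile normalization. Of the other 9 purine salvage genes 5 were higher without overlap and 2 lower, against 33.8% and 19.6% of genes averaging 10 FPKM or more. The median difference over all 10 was 0.076, and it was -0.0037 at the same summed FPKM, 0.044 under quantile normalization, 0.15 without 7KC-IMQ replicate 1 and 0.028 without 7KC-IMQ replicate 2. Adenosine deaminase *Ada* (3.00 and 2.68 against 3.90 and 5.73 FPKM, difference 0.58) and *Aprt*, which salvages adenine (70.2 and 70.03 against 83.7 and 97.8 FPKM, 0.36), were higher. *Gmpr*, a reductase that returns guanine to adenine nucleotides, was lower (8.26 and 8.15 against 4.54 and 7.27 FPKM, -0.44), and *Gda*, the guanine deaminase, was higher (18.2 and 22.9 against 23.8 and 25.1 FPKM, 0.25). The adjusted p of these 4 was 0.356 to 0.494 by limma.

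*Ywhaz* encodes the zeta isoform of the 14-3-3 proteins, adaptors that bind phosphorylated partners. Its FPKM was 195 and 179.9 in Cont-IMQ and 185 and 188 in 7KC-IMQ. Both 7KC-IMQ values lay between the Cont-IMQ values, and the difference was -0.0064 on the log2 scale (95% interval -0.21 to 0.20, adjusted p = 0.983 by limma). It was the difference closest to 0 among the 9 genes with the FPKM as deposited, but not at the same summed FPKM (-0.088) or under quantile normalization (-0.11). Among the other 6 isoforms 4 were higher without overlap and 0 lower, against 33.8% and 19.6% of genes averaging 10 FPKM or more. The median difference over all 7 was 0.10. It was 0.020 at the same summed FPKM, 0.022 under quantile normalization and 0.025 without 7KC-IMQ replicate 2. *Ywhah* had 67.6 and 67.7 against 77.6 and 82.6 FPKM (difference 0.24, adjusted p = 0.357), *Ywhae* 205 and 218 against 228 and 226 FPKM (0.10, adjusted p = 0.608) and *Ywhag* 67.6 and 69.2 against 69.6 and 77.5 FPKM (0.10, adjusted p = 0.642). *Sfn*, the isoform of keratinocytes, overlapped (1437 and 1498 against 1445 and 1795 FPKM).

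**Figure D3:**
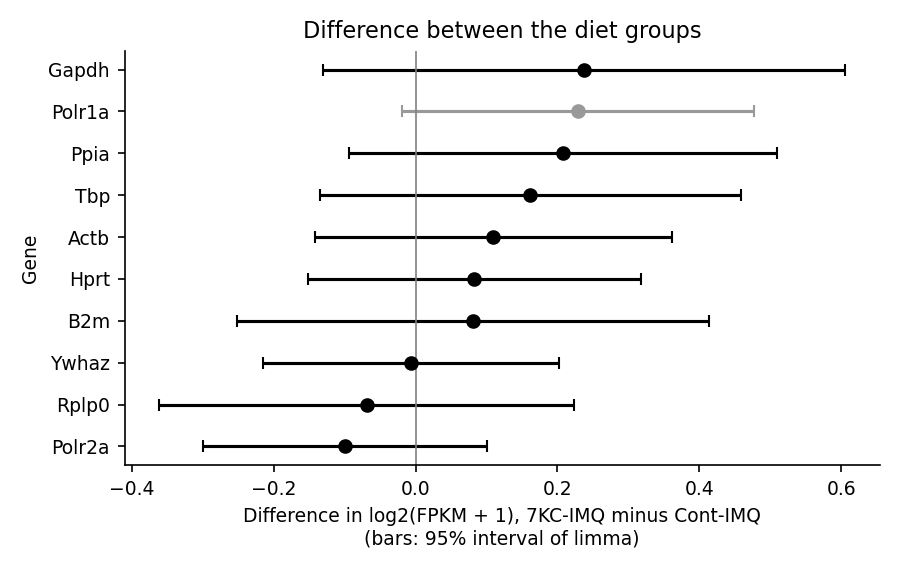
The difference in log2(FPKM + 1), 7KC-IMQ minus Cont-IMQ, is plotted for the 9 genes (black) and for *Polr1a* (grey), with bars for the 95% interval of limma. Every interval crosses 0, and the estimates run from -0.10 for *Polr2a* to 0.24 for *Gapdh*.

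A further 20 genes in common use as references were compared in the same way. Of these, 8 were higher without overlap and 3 lower, shares of 40% and 15% that lie near the 33.8% and 19.6% of genes averaging 10 FPKM or more. An unadjusted p under 0.05 was found for 4 in the higher direction and 0 in the lower, against 7.50% and 5.47% of all genes tested, and 0 passed the adjusted test. Their median difference was 0.070 (-0.012 at the same summed FPKM and -0.0012 under quantile normalization), and 12 of the 20 stayed within 1.2-fold over the 4 libraries. The 4 with the largest differences were *Alas1*, the first enzyme of heme synthesis (43.7 and 44.8 against 52.0 and 65.7 FPKM, difference 0.39), the glycolytic enzyme *Pgk1* (283 and 245 against 312 and 365 FPKM, 0.36), the tubulin *Tubb5* (151 and 174 against 208 and 203 FPKM, 0.34) and the respiratory chain cytochrome *Cyc1* (152 and 137 against 175 and 181 FPKM, 0.30). In all 4 both 7KC-IMQ libraries were higher, with an adjusted p of 0.356 to 0.372 by limma. *Eef1a1*, an elongation factor of translation, was lower in both (4784 and 4869.8 against 4632 and 4502 FPKM), and *Gusb*, a lysosomal enzyme, overlapped (18.0 and 17.9 against 17.1 and 19.2 FPKM).

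Ratios between the 9 genes do not depend on how a library was scaled by a single factor. Each gene was therefore set against the mean log2(FPKM + 1) of the other 8. On this scale *Polr2a* was lower in 7KC-IMQ by 0.20, *Rplp0* by 0.17 and *Ywhaz* by 0.096, and *Ppia* was higher by 0.15, all without overlap and each with p = 0.333 in a two-sided exact permutation test. *Gapdh* was higher by 0.18 (p = 0.667, exact permutation test; 0.063 without Cont-IMQ replicate 2 and 0.30 without Cont-IMQ replicate 1) and *Tbp* by 0.094, both with overlap. *Actb* (0.035), *Hprt* (0.0050) and *B2m* (0.0031) were closest to the other genes. Under quantile normalization *Polr2a* was lower by 0.11 and *Rplp0* by 0.26, and *Tbp* was higher by 0.21. The exact p was 1 for *Tbp*, *Actb*, *Hprt* and *B2m*.

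Of the 36 pairs that the 9 genes form, 22 had ratios that did not overlap between the groups, and 9 had a log2 ratio that differed by 0.2 or more. The SD of the log2 ratio over the 4 libraries had a median of 0.12. It was smallest for *Polr2a* with *Rplp0* (0.039), whose ratio was -6.84 and -6.86 in Cont-IMQ and -6.84 and -6.92 in 7KC-IMQ. These genes thus kept their ratio while both were lower in 7KC-IMQ. The SD was largest for *Polr2a* with *Gapdh* (0.23), whose ratio was -6.00 and -5.77 in Cont-IMQ and -6.13 and -6.32 in 7KC-IMQ, a difference of -0.34. Averaged over its 8 partners, the SD was lowest for *B2m* (0.098) and *Ywhaz* (0.10), followed by *Hprt* and *Actb* (0.11 each), *Ppia* and *Rplp0* (0.12 each), *Polr2a* (0.13), *Tbp* (0.15) and *Gapdh* (0.17). Differences between neighbours in this order were small beside the spread of the pairs and were not tested.

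**Figure D4:**
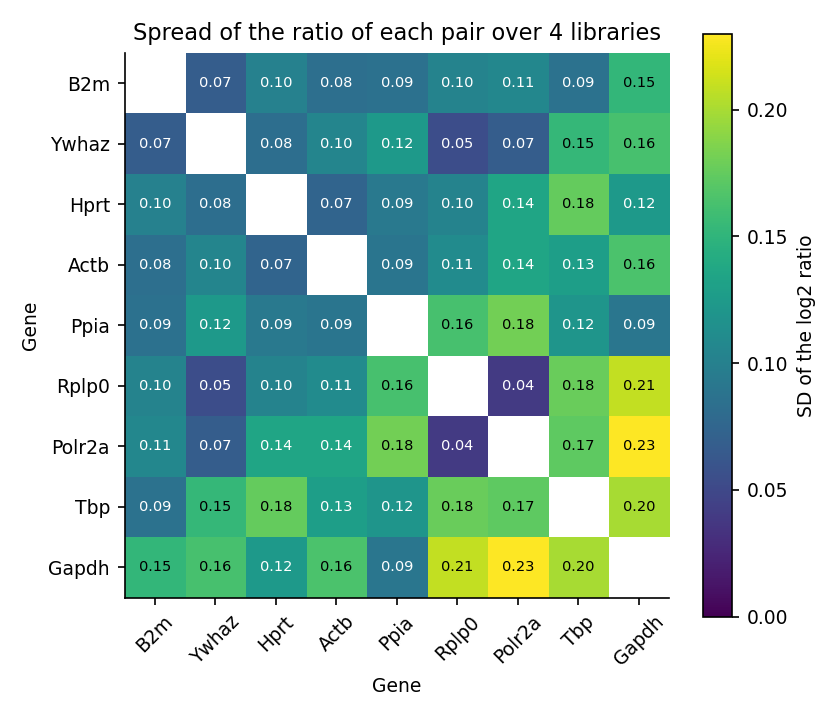
Each cell gives the SD over the 4 libraries of the log2 ratio of a pair of genes, with genes ordered by their mean SD over all partners, from *B2m* to *Gapdh*. The darkest cells join *Polr2a* and *Rplp0* (0.039) and the brightest join *Polr2a* and *Gapdh* (0.23).

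The geometric mean of the 9 genes was 328 and 314 FPKM in Cont-IMQ and 338 and 341 FPKM in 7KC-IMQ. It was higher in both 7KC-IMQ libraries, by 0.079 on the log2 scale (two-sided exact permutation p = 0.333). The summed FPKM was also higher in both 7KC-IMQ libraries, at 654666 and 702218 against 651015 and 630272 in Cont-IMQ. Rescaling to the same summed FPKM moved the median difference of all genes by -0.061. On that scale *Polr2a* (-0.18), *Rplp0* (-0.15), *Ywhaz* (-0.088) and *B2m* (-0.00065) were lower in 7KC-IMQ. *Gapdh* (0.16), *Ppia* (0.13), *Tbp* (0.087), *Actb* (0.028) and *Hprt* (0.0021) were higher. The 9 genes thus lay on both sides of 0 there, and their geometric mean itself was not compared.

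Dividing a library by a reference gene divides every FPKM value of that library by the same number. On log2(FPKM + 1) the step is smaller for genes with low values, and replicate differences of the reference enter too. The split of the calls below thus follows from the reference values given above and is no separate result about the genes called. With FPKM as deposited, 1192 genes were higher and 869 lower in 7KC-IMQ at an unadjusted p under 0.05 by limma, so that 57.8% of them were higher. Rescaling the libraries to the same summed FPKM gave 638 higher and 1230 lower (34.2%). Median ratio scaling divides each library by the median of its ratios to the geometric mean of each gene. It gave 1182 higher and 876 lower (57.4%) and moved the median difference of all genes by only -0.00040. When each library was divided by its *Polr2a* value, 2240 were higher and 427 lower (84.0% higher), and with *Rplp0* 1991 were higher and 493 lower (80.2%). With *B2m* the split was 509 to 1347 (27.4%), and with *Gapdh* it was 228 to 1631 (12.3%). *Ppia* gave 296 higher and 3264 lower (8.31%), and *Polr1a* 203 and 3765 (5.12%). Among the reference genes, *Ywhaz*, with 1134 higher and 702 lower (61.8%), stayed closest to the values as deposited. *Hprt* gave 529 and 940, *Actb* 497 and 1510, *Tbp* 268 and 1407, and the geometric mean of all 9 gave 639 and 1454 (30.5%). Scaling by *Gapdh*, *Ppia*, *Tbp* and *Polr1a* moved the median difference of all genes by -0.18, -0.16, -0.13 and -0.19, and each of the other references moved it by less than 0.1. The number of genes with an adjusted p under 0.05 was 1 with the values as deposited and with *Polr2a*, *B2m*, *Actb*, *Ppia*, *Rplp0*, *Ywhaz* and the geometric mean, 75 with *Gapdh*, 68 with *Tbp*, 18 with *Hprt* and 2 with *Polr1a*.

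**Figure D5:**
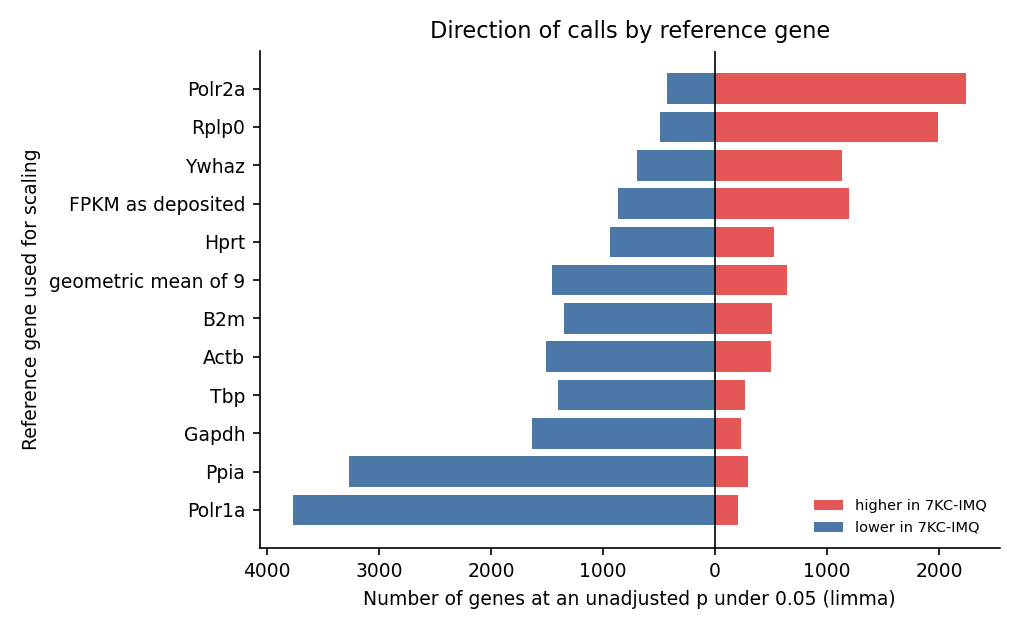
Bars give the number of genes at an unadjusted p under 0.05 by limma that were higher (red, to the right) or lower (blue, to the left) in 7KC-IMQ after each library was divided by the reference gene named on the axis, ordered by the share that was higher. The share falls from 84.0% with *Polr2a* to 5.12% with *Polr1a*.

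For the targets that the study measured by qPCR, mainly cytokines and keratins, the direction seldom turned with the reference. A positive difference turns only where that of the reference is larger, so this follows from the values and is no separate result. The targets are taken as 16 genes, since the single probe named for Krt6 is counted here as both *Krt6a* and *Krt6b*. Of these, 15 were higher in 7KC-IMQ without overlap with the FPKM as deposited, against 23.9% of all genes tested. The median difference of the 16 was 0.81. It was 1.14 with a pseudocount of 0.1, and 1.02 among those with an average FPKM of at least 1. An unadjusted p under 0.05 by limma was found for 14, all in the higher direction (7.50% of all genes tested), and an adjusted p under 0.05 for 0. The study chose these genes on related samples, so their direction is not independent evidence. *Il17f*, a cytokine of Th17 cells, had 1.34 and 1.02 against 5.08 and 6.33 FPKM, and *Il23a*, a subunit of the cytokine that sustains those cells, had 2.15 and 1.82 against 7.92 and 8.13 FPKM. *Il6*, an acute-phase cytokine, had 1.78 and 2.54 against 5.40 and 12.5 FPKM, and *Krt6b*, a keratin of activated epidermis, had 240.04 and 347 against 539 and 1251 FPKM. In these 4 both 7KC-IMQ libraries were higher, by 1.51 to 1.62 on the log2 scale, with an adjusted p of 0.265 to 0.356 by limma. Subtracting the difference of the reference gave a median over the 16 genes of 0.90 with *Polr2a*, 0.72 with *B2m*, 0.58 with *Polr1a* and 0.57 with *Gapdh*. The full difference was subtracted from each gene, although for targets with low values the step would be smaller. All 16 stayed positive with *Polr2a*, *B2m*, *Actb*, *Hprt*, *Rplp0* and *Ywhaz*. With *Gapdh*, *Tbp*, *Ppia* and *Polr1a* 15 of 16 did, and the exception was *Tgfb1*, a growth factor of wound repair, whose difference was 0.12 as deposited, 0.22 with *Polr2a*, 0.037 with *B2m* and -0.11 with *Polr1a*.

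Among the 13109 other genes with an average FPKM of at least 1, those whose pattern over the 4 libraries was most like *Polr2a* were *Bptf* (8.97, 8.76, 8.30 and 8.11 FPKM), *Cyb561a3* (8.25, 8.02, 7.67 and 7.46 FPKM) and *Apc* (7.44, 7.19, 6.93 and 6.73 FPKM), each given in the order Cont-IMQ 1, Cont-IMQ 2, 7KC-IMQ 1 and 7KC-IMQ 2. Likeness was the root mean square difference of log2(FPKM + 1) after each gene was centred on its mean, which was 0.0018, 0.0032 and 0.0071 for these, against a median of 0.13 over all candidates. The genes most like *B2m* were *Zfp446* (0.0039), the ribosomal protein gene *Rps25* (0.0044) and *Ublcp1* (0.0058). *Rps25* had 1035 and 979 FPKM in Cont-IMQ and 1091 and 1035 FPKM in 7KC-IMQ. With 4 libraries, close likeness is found for many genes and is given as a description.

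The depth and make-up of the libraries bear on these values. Depth was estimated from the low FPKM values, which step by whole reads, at 15080000 to 16340000 reads per library. Of the low genes used, 69.2% to 71.8% lay within 0.1 reads of a whole number, against 20% by chance. Apart from *Tbp*, *Hprt* and *Polr2a*, each of the 9 genes had an estimated 8396 to 48011 reads per library, so that counting error was at most 1.09%. These figures cover counting error only. Marker genes of keratinocytes were present in every library, with a summed FPKM of 16219 to 23831 over 7 genes, and those of fibroblasts, adipocytes and skeletal muscle were too. In bulk tissue, fewer cells of a type and less RNA per cell cannot be told apart. The summed FPKM of 8 hair follicle markers was 103 and 1447 in Cont-IMQ and 402 and 355 in 7KC-IMQ, so that Cont-IMQ replicate 2 stood apart; that library also had the lowest values of *B2m*, *Gapdh*, *Hprt*, *Ppia* and *Ywhaz*. Without it, *Gapdh* and *B2m* differed between the groups by 0.10 and 0.047, in place of 0.24 and 0.081, *Hprt* by 0.054 in place of 0.083, *Ppia* by 0.16 in place of 0.21, and *Ywhaz* by -0.064 in place of -0.0064. Without it 8 of the 9 genes stayed within 1.2-fold, and 8 had no overlap between the groups. Leaving out a library can only keep or raise such counts. With each library left out in turn, they ranged from 6 to 8 and from 7 to 9. The summed FPKM of 10 leukocyte markers was 604 and 657 in Cont-IMQ and 571 and 562 in 7KC-IMQ. Of the 10, 6 were lower in 7KC-IMQ without overlap and 0 higher, against 22.9% and 23.9% of all genes tested. The part of these shifts in the values of the 9 genes was not tested.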

How the data were processed

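Total RNA of dorsal skin was extracted with the miRNeasy kit, and libraries were prepared with the TruSeq stranded mRNA kit. The authors sequenced 75-base single-end reads, mapped them to mm10 and deposited 1 FPKM value per gene symbol and library. The submitters' processing notes name TopHat2 2.1.1, Bowtie2 2.2.8, SAMtools 0.1.18 and Cuffdiff 2.2.1. How reads that map to several genes were treated is not given in the sources used here. The deposited FPKM values were used without further scaling, transformed to log2(FPKM + 1), and compared by lmFit and eBayes with a variance trend (limma 3.58.1, R 4.3.3) in genes with an average FPKM of at least 0.1, with Benjamini-Hochberg adjustment at 0.05. On this scale, changes of genes with low values come out too small.

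The 9 genes and the lists of related genes were chosen with earlier results of these data known. From each list, at most 4 genes were named, those with the largest absolute difference among genes with an average FPKM of at least 1. For *Polr2a* and *B2m*, 3 genes of like pattern were also named. *H2-K1*, *H2-D1*, *Rplp1*, *Rplp2*, *Actg1*, *Eef1a1*, *Gusb* and *Tgfb1* were named after their values were seen, as was *Mir24-2*. Groups and replicate numbers came from the sample titles. Depth was estimated by the number of reads that brings low FPKM values closest to whole reads, with a fragment length of 200 bases. Shared windows and transcript lengths came from GENCODE M21. The alternatives were a pseudocount of 0.1, a minimum mean FPKM of 1 or none, median ratio, same sum and quantile scaling, no variance trend, a replicate block, each library left out, and scaling by each gene or by the geometric mean of the 9. Scaling by *Polr1a* was added after seeing the data.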

Additional observations from a re-analysis of the deposited data

How the results depend on the processing

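The 9 genes had 0 members with an adjusted or an unadjusted p under 0.05 by limma in all 12 alternatives run on them, and the lowest adjusted p of any of them was 0.362. Of 108 combinations of gene and alternative, 102 kept the direction and 6 reversed it, and *Polr2a*, *Gapdh*, *Tbp*, *Ppia* and *Rplp0* kept it in all 12. *B2m* turned to -0.00065 at the same sum and -0.10 under quantile normalization, and *Actb* to -0.022 under quantile normalization. With 1 library left out, *Hprt* ranged from -0.0038 to 0.17 and *Ywhaz* from -0.064 to 0.051. Set against the other 8 genes, *B2m* was -0.086 under quantile normalization and ranged from -0.048 to 0.054 with 1 library left out. *Gapdh* ranged from 0.063 to 0.30, *Actb* from -0.045 to 0.12, *Hprt* from -0.083 to 0.093 and *Tbp* from -0.049 to 0.24. The ratio of *Polr2a* to *B2m* differed by -0.022 under quantile normalization and by -0.20 to -0.16 with 1 library left out. The cause of these reversals was not tested.

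Over all genes, 1 had an adjusted p under 0.05. A pseudocount of 0.1 gave 2, and leaving out 1 library gave 1 to 11, highest without Cont-IMQ replicate 1 and 5 without Cont-IMQ replicate 2. At an unadjusted p under 0.05, 1192 genes were higher and 869 lower. The counts were 2240 and 427 scaled by *Polr2a*, 509 and 1347 by *B2m*, 497 and 1510 by *Actb*, 228 and 1631 by *Gapdh*, 529 and 940 by *Hprt*, and 268 and 1407 by *Tbp*. They were 296 and 3264 by *Ppia*, 1991 and 493 by *Rplp0*, 203 and 3765 by *Polr1a*, 639 and 1454 by the geometric mean, and 638 and 1230 at the same sum. Leaving out 1 library gave 339 to 1196 higher and 280 to 1149 lower, lowest without 7KC-IMQ replicate 2. A replicate block gave 978 higher and 776 lower and 1 gene with an adjusted p under 0.05. The deviations of the replicates with the same number correlated at 0.065 across genes, and nothing in the labels ties a number to a shared litter or day. With 2 libraries a group the intervals of all 9 genes include 0, and counting error is largest for *Tbp*.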
